A study of Mus musculus with 6 samples.

Results

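Iron enters most cells bound to transferrin, is used or stored in ferritin, and leaves through ferroportin. The 10 genes described here were listed by name for their roles in that path: Tfrc, Slc11a2 and Steap3 in uptake, Fth1, Ftl1 and Ncoa4 in storage, Slc40a1 in release, Hmox1 in heme breakdown, and Ireb2 and Aco1 in control. All 10 were found by symbol among the 28418 genes of the deposited tables, and 9, with 1 FPKM or more on average over the 6 libraries, were tested. The libraries came from 4T1, a fast-growing, metastatic epithelial line from a mammary carcinoma of a BALB/c mouse. The 3 libraries at 0 nM were from cells kept without perfluorooctane sulfonate (PFOS, a persistent fluorinated surfactant) and the 3 at 100 nM from cells kept with it, both for 35 passages. No genotype or transgene separates the groups, and the labels name no separate cultures behind the libraries: the p-values below measure the spread between samples, and that spread may be technical. The unit is FPKM, a count of fragments divided by the transcript's length and by the mapped total, and the RNA was poly(A)-selected.

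Some libraries stood apart, and results that rest on them are given with and without them. Replicates 1 and 2 at 0 nM held RNA of plasma protein and globin genes that the other 4 all but lacked, and replicate 3 at 100 nM held RNA of T cell and cytotoxic genes that the other 5 all but lacked, such as Gzmb (granzyme B), at 14.94 FPKM against at most 0.05. RNA of macrophage genes such as Lyz2 and Cd68 was found in all 6 libraries. The summed leukocyte markers were above the 0 nM range in replicates 2 and 3 at 100 nM. Ptprc, another of these markers, was at 0.06 to 0.23 FPKM in 5 libraries and at 1.31 FPKM in replicate 3 at 100 nM. Most of the sum was 1 gene, Lyz2, in every library. It was at 240.43 of 286.17 FPKM in replicate 2 and at 185.11 of 320.24 FPKM in replicate 3 at 100 nM. The FPKM sums of the libraries were alike, at 306716 to 309381.

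In the endosome, the reductase STEAP3 turns the iron brought in by transferrin and its receptor TFRC into the ferrous form, and the transporter DMT1 (Slc11a2) moves it into the cytosol. Cytosolic iron not in use is held in a shell of ferritin heavy (Fth1) and light (Ftl1) chains, and NCOA4 carries that shell to the lysosome when iron is needed. The iron regulatory proteins IRP1 (Aco1) and IRP2 (Ireb2) bind an RNA hairpin, the iron-responsive element, when iron is low. Bound before the coding sequence, as in ferritin and ferroportin (Slc40a1) messages, they block translation; bound after it, as in the Tfrc message, they protect the message from decay. RNA levels can therefore carry a mark of the second kind of control but not of the first, and do not by themselves show it.

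These hairpins are shown because they lie after the coding sequence in the Tfrc message and before it in the ferritin messages. Their part in the RNA levels below was not tested. The untranslated regions of protein-coding transcripts in GENCODE M21 (GRCm38) were searched, on the transcript strand only, for a C, any 5 bases, CAGTG and any 6 bases, in which the base after CAGTG is not G and the 5 bases on either side of the 6-base loop all pair, G with T allowed. Capitals mark the bulged C and the loop, and each run is 30 bases, 5′ to 3′.
Fth1, 5′ untranslated region, chr19:9982732-9982761, + strand: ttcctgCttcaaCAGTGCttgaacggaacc
Ftl1, 5′ untranslated region, chr7:45459778-45459807, - strand: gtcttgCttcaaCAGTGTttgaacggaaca
Slc40a1, 5′ untranslated region, chr1:45925464-45925493, - strand: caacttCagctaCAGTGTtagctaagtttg
Tfrc, 3′ untranslated region, site 1, chr16:32631219-32631248, + strand: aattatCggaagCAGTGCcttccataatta
Tfrc, 3′ untranslated region, site 2, chr16:32631598-32631627, + strand: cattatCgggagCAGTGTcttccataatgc
Tfrc, 3′ untranslated region, site 3, chr16:32631663-32631692, + strand: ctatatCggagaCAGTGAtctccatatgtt
Tfrc, 3′ untranslated region, site 4, chr16:32631710-32631739, + strand: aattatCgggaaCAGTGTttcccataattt

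The Fth1 and Ftl1 hairpins shared 26 of 30 bases, position by position. The Tfrc sites shared 18 to 25 of 30 among themselves and 9 to 13 with the ferritin sites. Sites 2, 3 and 4 of Tfrc began within 65 and 47 bases of each other, and site 1 lay 379 bases before site 2. Such a hairpin was found in the 5′ untranslated region of 22 of 16405 genes (0.134%) and in the 3′ untranslated region of 91 of 16467 (0.553%). The letters without the pairing were found in 9.32% and 33.1% of these genes. Slc11a2 had a site in its 3′ untranslated region only when 4 of the 5 pairs were enough. No site was found in the annotated untranslated regions of the other 5 members, which says only that these letters and pairs were not there.

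Levels ranged from 0.205 to 929 FPKM, a scale that is per length and lets genes be set side by side. Averaged over the 6 libraries, the order was Ftl1 (929 FPKM), Fth1 (423), Tfrc (46.4), Hmox1 (37.9), Aco1 (12.9), Ireb2 (12.1), Ncoa4 (9.92), Slc11a2 (6.28), Steap3 (1.27) and Slc40a1 (0.205). Ftl1 and Fth1 stood above 99.7% and 99.2% of the 11741 tested genes. The ranges over the 6 libraries did not overlap between neighbours in this order except for 2 pairs. Tfrc lay above Hmox1 in 5 of 6 libraries, and the ranges of Aco1 and Ireb2 met at 12.42 and 12.58 FPKM although Aco1 was the higher in 6 of 6.

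**Figure D1:**
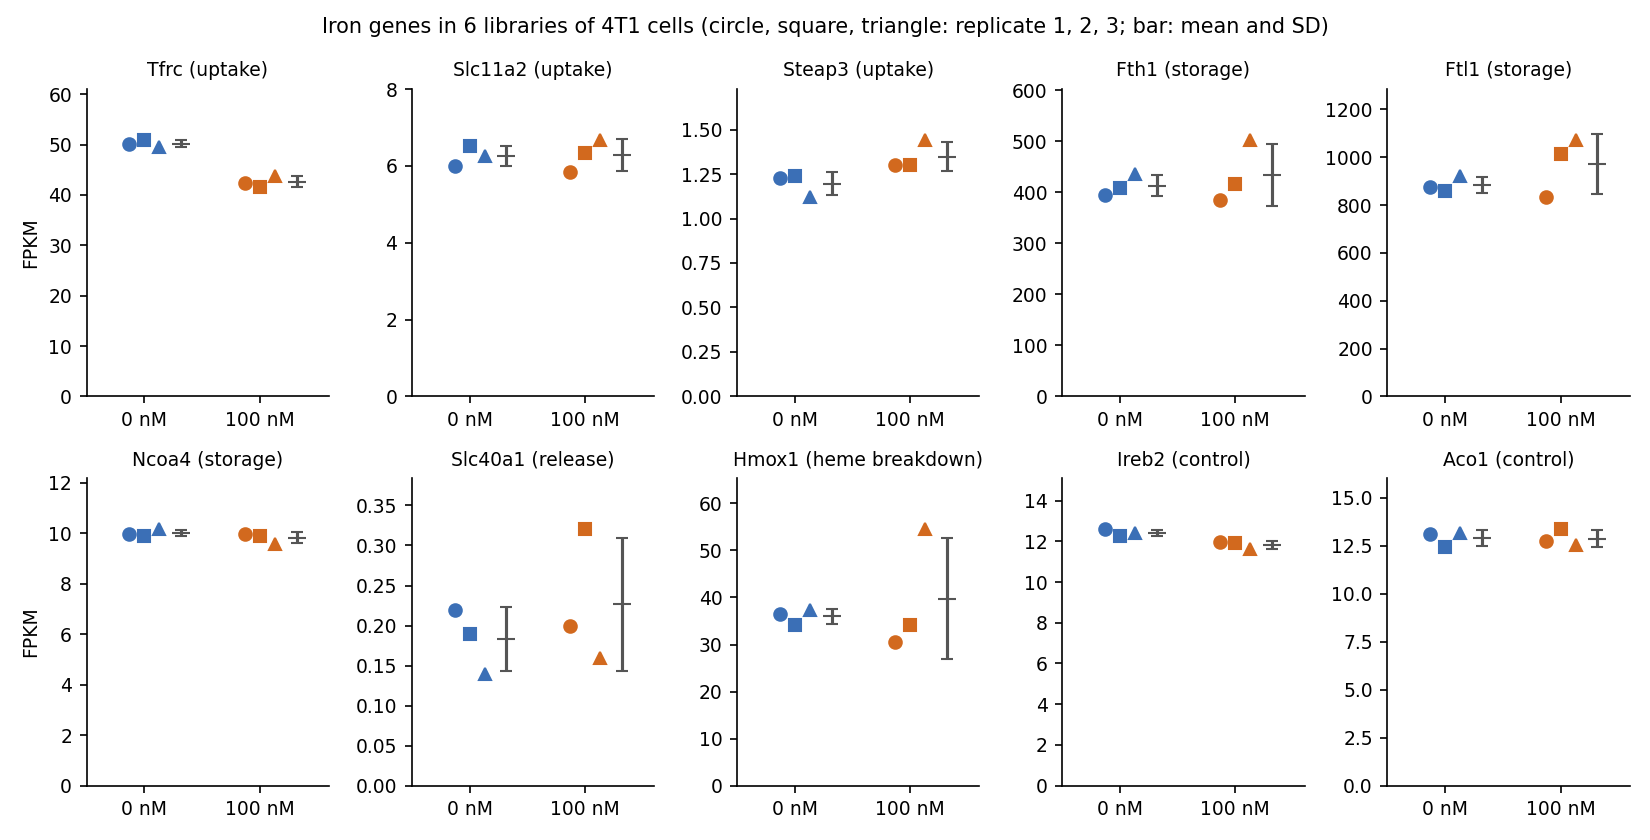
FPKM of the 10 iron genes (vertical axes from 0, each with its own scale) in the 3 libraries at 0 nM and the 3 at 100 nM PFOS, with symbols for replicates 1 to 3 and the mean and SD beside them. Tfrc is lower in all 3 libraries at 100 nM, and Hmox1, Fth1 and Ftl1 are highest in replicate 3 at 100 nM.

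Between 0 and 100 nM PFOS, transferrin receptor RNA fell and no other member passed the test. Of the 9 members tested, 1 was lower and 0 were higher at a Benjamini-Hochberg adjusted p under 0.05 in limma on log2(FPKM + 1). Over all tested genes that rule called 4.15%, with 2.46% lower and 1.69% higher, so a single call among 9 genes is a statement about Tfrc and not about the group. The median difference was 0.00 over the 9 members and 0.01 over all tested genes. At an unadjusted p under 0.05 there were 2 of 9, against 20.7% of all tested genes. For 3 of the 9 (Tfrc, Ireb2 and Steap3) the libraries of one group all lay on one side of the other's, against 26.9% of all tested genes.

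**Figure D2:**
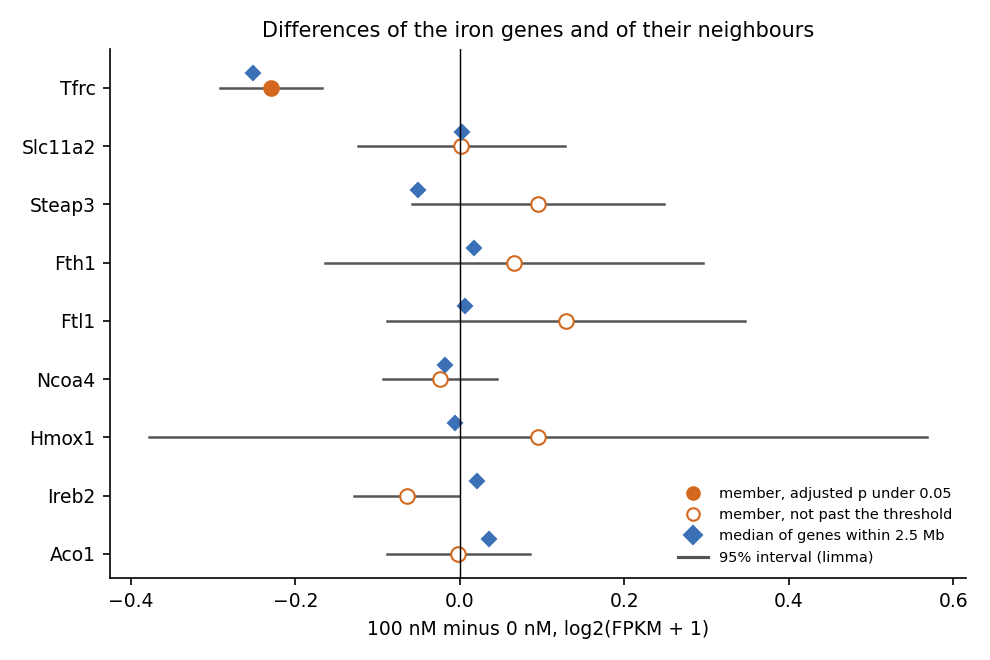
Difference between 100 and 0 nM PFOS on the log2(FPKM + 1) scale for the 9 tested members (circles, with 95% limma intervals) and the median difference of the tested protein-coding genes within 2.5 Mb of each (diamonds). Tfrc is the member whose interval lies farthest from 0, and its neighbours' median lies beside it.

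Among the uptake genes, Tfrc (ENSMUSG00000022797, chromosome 16, 32608920 to 32632794) stood at 50.06, 50.87 and 49.57 FPKM at 0 nM and at 42.45, 41.63 and 43.84 FPKM at 100 nM. Every library at 100 nM lay below every library at 0 nM, and the gap between the groups was wider than the range within either. The mean went from 50.2 ± 0.657 to 42.6 ± 1.12 FPKM (SD, n = 3 each), a ratio of 0.85. As log2(FPKM + 1), Tfrc fell by 0.23 ± 0.03 (SE; limma adjusted p = 0.00837), with a 95% interval from -0.29 to -0.17. None of its 31-base words occurs in a transcript of another gene. Leaving out any 1 library gave adjusted p-values of 0.0121 to 0.0484 (limma). The call was lost without replicates 1 and 2 at 0 nM (limma adjusted p = 0.253) and in 1 more of the 18 alternatives.

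The genes around Tfrc were lower as well. Of the 33 tested protein-coding genes that start within 2.5 Mb of its start, a window chosen after the values were seen, 33 had a lower mean at 100 nM and 23 of them passed the test. Their median difference was -0.25 on the log2(FPKM + 1) scale, with a range from -0.48 to -0.13. Tfrc, at -0.23, was 0.02 above that median, and 22 of the 33 neighbours fell further. By library, the neighbours' median relative to the 0 nM mean was -0.25, -0.26 and -0.28 in replicates 1, 2 and 3 at 100 nM, where Tfrc stood at -0.24, -0.26 and -0.19. The nearest of these tested genes on either side, by start, were Pcyt1a, for a phosphatidylcholine synthesis enzyme (-0.46), and Tnk2, for a non-receptor tyrosine kinase (-0.26). The part of the chromosomal surroundings in the lower Tfrc level was not tested.

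**Figure D3:**
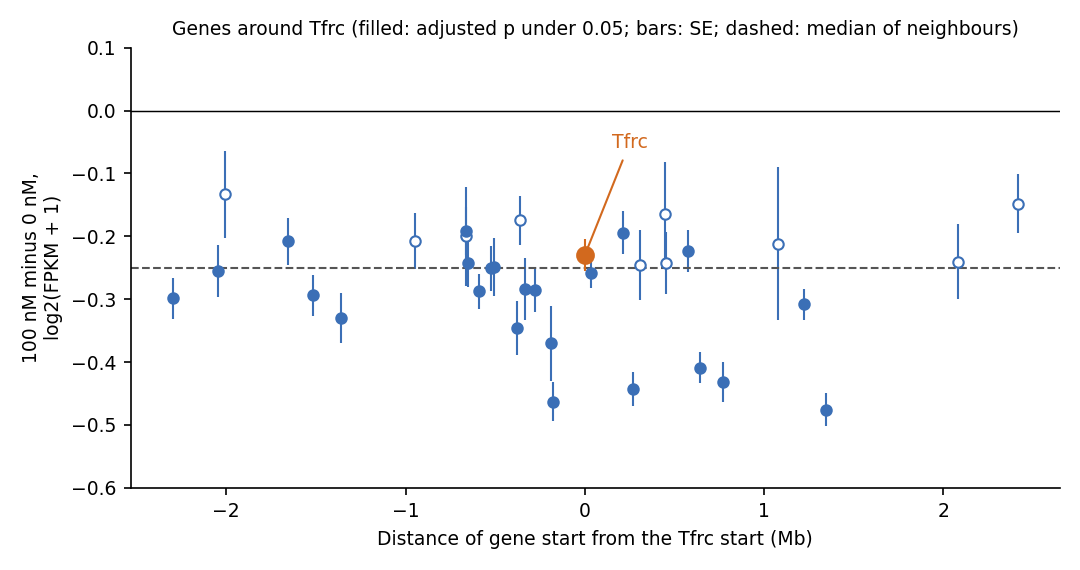
Difference between 100 and 0 nM PFOS on the log2(FPKM + 1) scale, with its SE, for Tfrc and the 33 tested protein-coding genes around it, against distance from the Tfrc start in Mb. All 34 points lie below 0, and Tfrc lies close to the dashed median of its neighbours at -0.25.

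No other member had such surroundings. Over the other 9 the median difference of neighbours within 2.5 Mb lay between -0.05 (Steap3) and 0.04 (Aco1), and at most 3 of their neighbours passed the test (Slc11a2, 3 of 76).

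Slc11a2, for the endosomal iron transporter (chromosome 15, 100387898 to 100424092), was at 6.01, 6.53 and 6.27 FPKM at 0 nM and at 5.84, 6.34 and 6.67 FPKM at 100 nM. The groups overlapped throughout, and the difference was 0.00 (95% interval -0.12 to 0.13; limma adjusted p = 0.991). A gene-level value does not separate its messages with and without the 3′ hairpin. Steap3, for the endosomal reductase (chromosome 1, 120190757 to 120271082), was at 1.23, 1.24 and 1.12 FPKM at 0 nM and at 1.30, 1.30 and 1.44 FPKM at 100 nM. The 3 libraries at 100 nM were the higher, but the difference of 0.10 had an interval from -0.06 to 0.25 and did not pass (limma adjusted p = 0.46), at a level near the filter.

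Of the storage genes, the ferritin chains varied more between the libraries at 100 nM than at 0 nM. Fth1, the heavy chain with the ferroxidase site (chromosome 19, 9980598 to 9985092), was at 394.84, 407.64 and 435.36 FPKM at 0 nM and at 384.26, 416.50 and 502.10 FPKM at 100 nM. Replicate 1 at 100 nM was the lowest of the 6 and replicate 3 the highest. The means were 413 ± 20.7 and 434 ± 60.9 FPKM (SD, n = 3 each), a difference of 0.07 with an interval from -0.16 to 0.30 (limma adjusted p = 0.752). Without replicate 3 at 100 nM the sign turned, to -0.04.

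Ftl1, the light chain that favours mineral formation (chromosome 7, 45457944 to 45459884), was at 875.79, 857.26 and 922.45 FPKM at 0 nM and at 832.24, 1015.01 and 1071.30 FPKM at 100 nM. Replicate 1 at 100 nM was again the lowest of the 6, and replicates 2 and 3 were above every library at 0 nM. The difference was 0.13, with an interval from -0.09 to 0.35 (limma adjusted p = 0.485). Without replicate 1 at 100 nM it was 0.24 with an adjusted p of 0.064 (limma), and without replicate 3 it was 0.05 with 0.772.

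Ftl1 shares 64.1% of its 31-base words with transcripts of other genes, the most with Ftl1-ps1, so how its reads were split is uncertain. Of the genes it shares them with, Ftl1-ps1 had a mean of 28.2 FPKM, Ftl2-ps 12.3 and Gm15590 7.67, and Ftl1-ps2 0.26. The first 3 together came to 4.64% to 5.53% of the Ftl1 value in each library. Fth1 shares 3.24% of its words, and its copy Fth-ps2 stood at 0.118 FPKM. Ftl1 also overlaps Gm10252 on the other strand, at 0.873 and 1.90 FPKM in the 2 groups.

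Ncoa4, the receptor that takes ferritin to the lysosome (chromosome 14, 32159865 to 32179855), was at 9.96, 9.91 and 10.15 FPKM at 0 nM and at 9.99, 9.91 and 9.58 FPKM at 100 nM. These values overlapped, and the difference of -0.02 had an interval from -0.09 to 0.05 (limma adjusted p = 0.698). The pseudogene Gm6768 holds most of the 18.8% of words that Ncoa4 shares, and stood at 9.87 FPKM on average, close to Ncoa4 itself at 9.92.

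Ferritin chains and transferrin receptor were also set against each other within each library, where scaling between libraries cancels. The ratio of Fth1 to Ftl1 was 0.451, 0.476 and 0.472 at 0 nM and 0.462, 0.410 and 0.469 at 100 nM. These overlapped (0.466 ± 0.013 and 0.447 ± 0.032, SD, n = 3 each; two-sided exact permutation p = 0.5). The ratio of Tfrc to Fth1 was 0.127, 0.125 and 0.114 at 0 nM and 0.110, 0.09995 and 0.0873 at 100 nM. All 3 ratios at 100 nM lay below those at 0 nM, with means of 0.0992 and 0.122, and the two-sided exact permutation p of 0.1 is the smallest that 3 against 3 libraries can give. Fth1 and Ftl1 together made up 0.410% to 0.441% of all FPKM at 0 nM and 0.397%, 0.465% and 0.509% at 100 nM.

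Slc40a1, for ferroportin, the only known cellular iron exporter (chromosome 1, 45908068 to 45926523), was near the floor of the data. It stood at 0.22, 0.19 and 0.14 FPKM at 0 nM and at 0.20, 0.32 and 0.16 FPKM at 100 nM, and was not tested. The groups overlapped. In the library where it was highest, its 0.32 FPKM stood beside 41.63 FPKM of Tfrc.

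Hmox1, for heme oxygenase 1, which frees iron from heme and is induced by oxidative stress (chromosome 8, 75093621 to 75100589), was at 36.57, 34.16 and 37.25 FPKM at 0 nM and at 30.59, 34.14 and 54.45 FPKM at 100 nM. At 100 nM replicate 1 was below every library at 0 nM, replicate 2 was level with the lowest of them and replicate 3 was above them all. The means were 36.0 ± 1.62 and 39.7 ± 12.9 FPKM (SD, n = 3 each). The difference of 0.09 had the widest interval of the tested members, -0.38 to 0.57 (limma adjusted p = 0.833). Without replicate 3 at 100 nM it was -0.15 (limma adjusted p = 0.243).

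The summed macrophage and other leukocyte markers were also higher in replicates 2 and 3 at 100 nM, in replicate 2 mainly through Lyz2. The 14 markers of that list found in the files, of 16 listed, summed to 156 to 195 FPKM at 0 nM and to 153, 286 and 320 FPKM in replicates 1, 2 and 3 at 100 nM. Ms4a1, a B cell marker, was listed at 0 in all 6, and Cd3e and Cd3g, T cell markers, in all but replicate 3 at 100 nM (0.66 and 1.05 FPKM). Cd68, a lysosomal protein of macrophages, was at 18.60, 16.76 and 18.06 FPKM at 0 nM and at 15.52, 19.82 and 31.13 FPKM at 100 nM. Csf1r, the macrophage growth factor receptor, was at 4.71, 4.20 and 5.74 FPKM at 0 nM and at 3.30, 6.20 and 7.57 FPKM at 100 nM. Cd14, the lipopolysaccharide co-receptor of monocytes, reached 65.16 FPKM in replicate 3 at 100 nM, against 8.41 to 24.14 FPKM in the others. At 100 nM, Ftl1, Fth1 and Hmox1 were lowest in replicate 1, then replicate 2, and highest in replicate 3. That order was also seen in 5 of the 14 markers (Cd68, Csf1r, Itgam, Adgre1 and Ptprc), and not in the others. How many of all tested genes had it was not counted, so the 5 have no share to stand against. Lyz2, for lysozyme and the most abundant marker, was at 111.49, 240.43 and 185.11 FPKM, Cd14 was lowest in replicate 2, and Vcam1 was at 7.61, 7.22 and 7.19 FPKM. In bulk RNA, more cells of a type and more RNA per cell cannot be told apart. Whether leukocytes were present in every library, and their part in the ferritin and Hmox1 levels, was not tested. The 7 epithelial markers summed to 730 FPKM in each library at 0 nM and to 762 to 819 FPKM at 100 nM, so epithelial RNA was present throughout. Of these, Cdh1, Krt7 and Krt19 were higher at 100 nM (limma adjusted p = 0.00323, 0.00731 and 0.0187). Krt8, Krt18, Epcam and Cldn4 did not pass. The 10 fibroblast and endothelial markers summed to 5.56 to 5.76 FPKM at 0 nM and to 5.94, 6.53 and 9.36 FPKM at 100 nM.

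**Figure D4:**
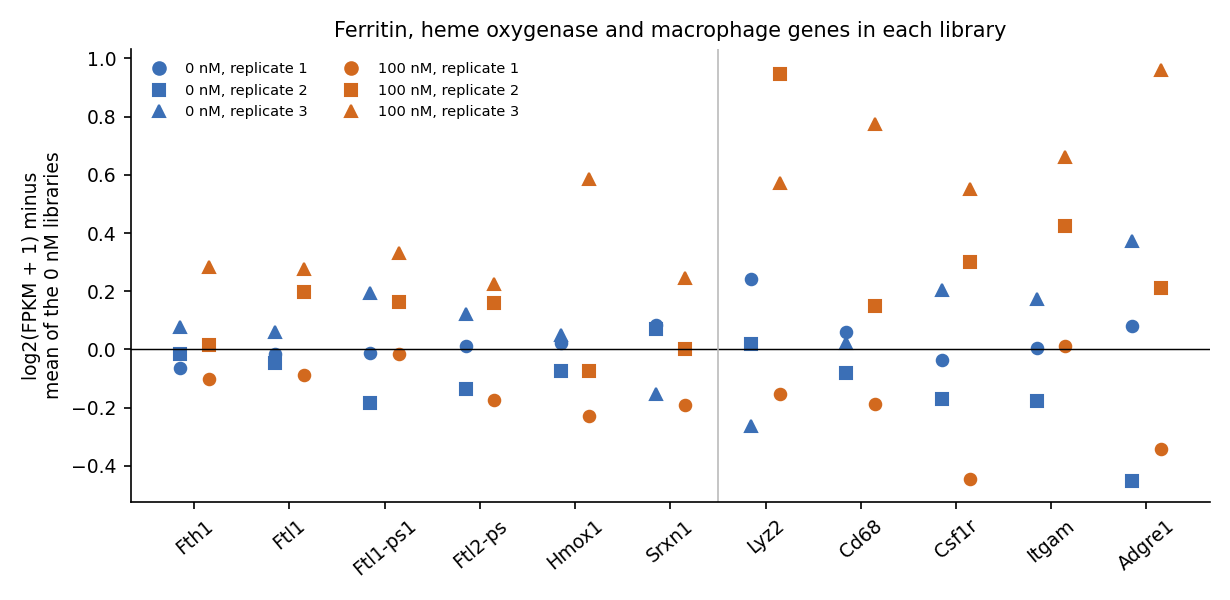
Levels of ferritin genes, 2 Ftl1 copies, Hmox1, the antioxidant gene Srxn1 and 5 macrophage genes in each of the 6 libraries, as log2(FPKM + 1) minus the mean of the 0 nM libraries. Replicate 3 at 100 nM (orange triangles) is the highest library for 10 of the 11 genes, all but Lyz2, and replicate 1 at 100 nM (orange circles) is the lowest for 7. The 11 genes were picked from longer lists, so these counts describe only the genes drawn. Of the macrophage markers not drawn, Cd14 was also highest in replicate 3 at 100 nM and Vcam1 was lowest there. Of the list that holds Srxn1, Slc7a11 was also highest there and Nqo1 was not.

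The 2 control genes stayed close to their 0 nM levels. Ireb2, for IRP2 (chromosome 9, 54863789 to 54912530), was at 12.58, 12.26 and 12.41 FPKM at 0 nM and at 11.95, 11.93 and 11.61 FPKM at 100 nM. All 3 libraries at 100 nM were the lower, by 0.06 on the log2(FPKM + 1) scale, and the limma adjusted p was 0.237 (unadjusted 0.048), so the difference did not pass. Aco1, for IRP1, which is a cytosolic aconitase when it holds an iron-sulfur cluster (chromosome 4, 40143081 to 40198338), was at 13.11, 12.42 and 13.16 FPKM at 0 nM and at 12.76, 13.35 and 12.53 FPKM at 100 nM. The groups overlapped, and the difference was 0.00 (interval -0.09 to 0.08; limma adjusted p = 0.987).

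Genes outside the 10 that carry a hairpin of the same form were also looked up. Of 15 tested with one in the 5′ untranslated region, 0 passed the limma test and 2 had an unadjusted p under 0.05. Of 65 tested with one in the 3′ untranslated region, 1 rose, 1 fell and 18 had an unadjusted p under 0.05. Over all tested genes 4.15% were called and 20.7% had such a p. The gene that rose was Ano1, a chloride channel gene, at 5.17 and 6.88 FPKM, and the gene that fell was Faf2, at 10.9 and 9.67 FPKM.

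The rest of the iron pathway was described with 4 lists that hold 100 genes of the files outside the 10, of which 79 were tested and 5 were called (6.33%, against 4.15% of all tested genes). Each list's count stands against that 4.15%. In iron transport, reduction, oxidation and sensing, 0 of 15 rose and 1 fell, with a median difference of -0.04. It was Steap2, a metalloreductase and relative of Steap3 (chromosome 5), at 21.51, 21.79 and 21.76 FPKM at 0 nM and at 18.44, 18.26 and 17.37 FPKM at 100 nM. The groups were apart, with a difference of -0.25 ± 0.03 (SE) and a limma adjusted p of 0.00904, or 0.0535 without replicate 2 at 0 nM. Over the 18 alternatives 4 lost the call. Its neighbour and relative Steap1, chosen after its values were seen, was at 37.2 and 32.8 FPKM and did not pass (limma adjusted p = 0.0632). Within 2.5 Mb of Steap2, 17 of 18 neighbours were lower, with a median of -0.14 and 2 called. None of those 18 was as low as Steap2. The RNA-binding iron chaperones Pcbp1 (151 and 150 FPKM) and Pcbp2 (88.0 and 89.3 FPKM) were the most abundant of this list and did not pass. Below the filter were 14 genes of the list, among them the hepcidin gene Hamp.

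In heme synthesis, transport and breakdown, 0 of 20 rose and 1 fell, with a median of -0.02. Lrp1, a receptor that takes up heme bound to hemopexin among many other ligands, was at 10.79, 10.42 and 9.81 FPKM at 0 nM and at 7.67, 8.13 and 8.90 FPKM at 100 nM (-0.30; limma adjusted p = 0.0433). The groups were apart, but the call held in 1 of the 6 fits that left out a library, that without replicate 3 at 100 nM, with adjusted p-values from 0.0332 to 0.138 over the 6. Within 2.5 Mb of Lrp1, 24 of 67 neighbours were lower and 43 were higher, with a median of 0.02. The porphyrin transport gene Tmem14c and the heme transporter gene Slc48a1 were the most abundant, at 52.9 and 52.7 FPKM and at 42.0 and 41.2 FPKM, and did not pass.

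The largest differences in the transport and heme lists were not called and came from 2 libraries. Hpx, for the plasma heme carrier hemopexin, was at 4.79 and 4.97 FPKM in replicates 1 and 2 at 0 nM and at most 0.04 FPKM in the other 4. Trf, for transferrin itself, was at 3.84 and 3.62 FPKM in those libraries and at 0.38 to 1.23 FPKM in the others. The choice of both followed a look at their values. The same 2 libraries held Alb, the albumin gene, at 7.17 and 6.88 FPKM, against at most 0.06 FPKM in the others, and the globin gene Hbb-bs at 1.48 and 0.51 FPKM against 0 in the others. The 8 erythroid markers found in the files, of 11 listed, summed to 10.2 and 7.17 FPKM there and to 3.98 to 5.28 FPKM in the others. Much of each sum was Epor, at 5.36 and 4.50 FPKM there and at 3.52 to 4.95 FPKM in the others. Epor was itself lower at 100 nM, at 4.94 and 3.71 FPKM in the 2 groups (limma adjusted p = 0.0397). Whether that call held with libraries left out was not looked up. A list of 6 plasma protein genes known for their expression in liver, also chosen after values were seen, summed to 13.1 and 11.9 FPKM in replicates 1 and 2 at 0 nM and to at most 0.08 FPKM elsewhere. The part of such RNA in the Trf and Hpx values was not tested. With those 2 libraries left out, which leaves 1 library at 0 nM that is assumed to vary like those at 100 nM, Tfrc differed by -0.21 and 5 of all genes were called.

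In iron-sulfur cluster assembly, 2 of 28 rose and 1 fell, with a median of -0.01. Ciao2a, of the cytosolic assembly machinery that serves IRP1, was at 49.14, 53.17 and 50.13 FPKM at 0 nM and at 55.97, 58.87 and 59.50 FPKM at 100 nM (limma adjusted p = 0.0466). Nubp1, a scaffold of the cytosolic machinery, was at 17.47, 16.93 and 18.61 FPKM at 0 nM and at 14.37, 14.23 and 15.33 FPKM at 100 nM (limma adjusted p = 0.0346).

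In both Ciao2a and Nubp1 the groups were apart, but the call of Ciao2a was lost when any 1 library was left out, and that of Nubp1 in 5 of 6, all but the fit without replicate 3 at 100 nM. Around Nubp1, which is on chromosome 16 like Tfrc, 18 of 18 neighbours were lower (median -0.13), and around Ciao2a 36 of 38 were higher (median 0.17). The chaperone gene Hspa9 was the most abundant of the list, at 195 and 183 FPKM, and did not pass (limma adjusted p = 0.0798).

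In lipid peroxide defence and ferroptosis, an iron-dependent form of cell death, 0 of 16 passed the limma test and 3 had an unadjusted p under 0.05, near the 20.7% of all tested genes, with a median of 0.02. The smallest p-values were those of Gclc, the catalytic subunit for glutathione synthesis, at 14.4 and 15.8 FPKM (limma adjusted p = 0.0911), and Lpcat3, a phospholipid acyltransferase, at 19.6 and 20.7 FPKM (limma adjusted p = 0.162). Gpx4, which reduces lipid peroxides, was at 84.5 and 83.0 FPKM, and Slc3a2, a subunit of the cystine importer, at 50.3 and 49.3 FPKM.

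**Figure D5:**
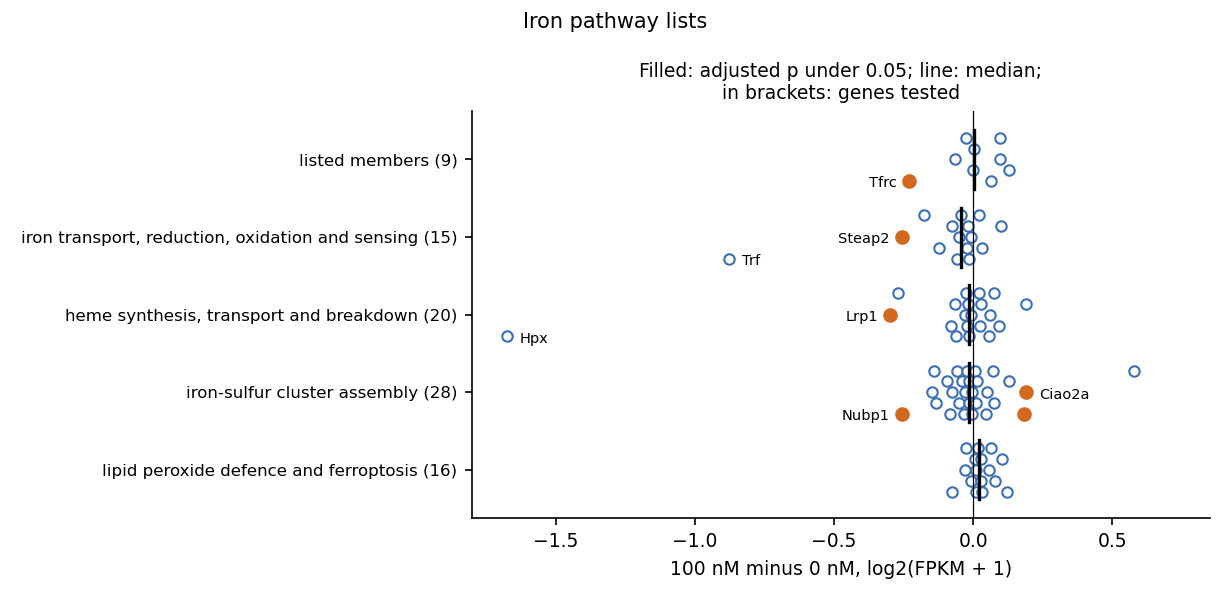
Differences between 100 and 0 nM PFOS on the log2(FPKM + 1) scale for the tested genes of the 10 members and of the 4 pathway lists, with filled points past the adjusted p threshold and a line at each median. The 5 medians lie between -0.04 and 0.02, and the called genes are 1 member and 5 others.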

How the data were processed

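The members and gene lists were chosen with earlier results of these data known. The deposited values are FPKM per gene, 1 table per library and 28418 genes. The tools named per the submitters' processing notes are fastp, HISAT2 and StringTie, with the builds mm10 and GRCh38. Their versions, the role of GRCh38 and whether quantification used strand (the libraries kept it by dUTP) are things not given in the sources used here. Symbols came from GENCODE M21 (GRCm38), which held 28350 of the identifiers. Depth is unknown: 24.5% to 26.7% of 1418 to 1465 low values per library lay within 0.1 of a whole read at the best of the depths tried, so reads were not recovered. Library sums were 306716 to 309381 FPKM.

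Genes averaging 1 FPKM or more were tested with limma-trend 3.58.1 in R 4.3.3. The comparison was 100 nM minus 0 nM on log2(FPKM + 1), two-sided, with Benjamini-Hochberg adjustment over all 11741 genes. Fold changes on that scale understate the change of low genes. The fit was tested on simulated data. The ratios of Fth1 to Ftl1 and of Tfrc to Fth1 had exact permutation tests. From each list, the 3 called genes with the smallest adjusted p, or else the 2 with the smallest p, and the 2 most abundant are named, beside copies of the ferritin genes and markers above 1 FPKM. Of these, 1 gene is not reported here. Words of 31 bases were compared with all GENCODE transcripts, on both strands. Alternatives covered pseudocount, filter, scaling, moderation, gene type, replicate block and left-out libraries. Other steps ran in Python 3.11.15 with pandas 2.3.3, numpy 2.4.6 and scipy 1.17.1, and figures were drawn with matplotlib 3.10.9.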

Additional observations from a re-analysis of the deposited data

How the results depend on the processing

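Over 18 alternatives, Tfrc stayed lower in all, by -0.26 to -0.21, and was called in 16. Its call was lost with the replicate number as a block (adjusted p = 0.0731; 0 members, 58 of all genes and 0 other iron genes called) and without replicates 1 and 2 at 0 nM, an alternative chosen after seeing the data (0 members, 5 genes and 0 other iron genes). Same-numbered libraries did not deviate together (correlations of -0.03, -0.05 and 0.01), so the numbers were not taken as pairs. No other member was called under any alternative. The count of all genes called was 204 with no filter, 294 with no trend, 74 without replicate 3 of both groups and 122 to 289 when 1 library was left out, against 487. The other iron genes called were 1 under each of those first 3 and 0 to 3 when 1 library was left out, against 5. The Fth1 to Ftl1 ratio differed by -0.03 to 0.00 and the Tfrc to Fth1 ratio by -0.028 to -0.017 when 1 library was left out. Small differences that were not called turned their sign. When 1 library was left out, they ran from -0.043 to 0.15 for Fth1, from -0.15 to 0.26 for Hmox1, from -0.027 to 0.016 for Aco1 and from -0.036 to 0.046 for Slc11a2. Without replicate 3 of both groups they were -0.0041 for Fth1, -0.13 for Hmox1, 0.030 for Aco1, 0.0020 for Ncoa4 and -0.036 for Slc11a2. Fth1 was at -0.013 without replicates 1 and 2 at 0 nM, and Slc11a2 at -0.010 with quantile normalization and -0.0014 with median ratio scaling. The cause of these changes was not tested. With depth unknown, the precision of the low Slc40a1 and Steap3 values is known only from the replicates.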
